A study of Mus musculus with 2 samples.

Results

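Interferon-stimulated genes were compared between autoreactive and non-autoreactive immature B cells of mouse bone marrow. The set was a list of 34 gene names, and every gene probe whose name, or its current synonym, was on the list was kept. The names matched 35 genes and 57 probes. The array's probes named Ifi27 were assigned to Ifi27l2a, a gene that is not on the list of names. All 35 genes had a tested probe, out of 15110 genes tested, and 53 of the 57 probes were tested, out of 22623 tested on the whole array. Irf9, Gbp3, Irgm1, Trim30a and Ifi27 were found under their older names Isgf3g, Gbp4, Irgm, Trim30 and D12Ertd647e.

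Both groups carried 3-83Igi, an antigen receptor inserted into the immunoglobulin loci, whose ligand is H-2b class I. The autoreactive cells came from BALB.B mice with the genotype 3-83Igi, Rag1-/-, H-2b, so their receptor met its ligand in the marrow. The non-autoreactive cells came from BALB/c mice with 3-83Igi and H-2d, and the Rag1 deletion is not listed for them. In both groups the mice were untreated, no age is given, and pooled cells were sorted as B220+ and negative for CD23, CD43 and IgD. Strain, haplotype, Rag1 genotype and dye all followed the groups, so their effects cannot be told apart from that of autoreactivity.

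Each of the 2 arrays carried 1 autoreactive pool in Cy5 and non-autoreactive cells in Cy3. The submitters' design names 2 biological replicates per group. The labels number only the autoreactive pools, so p-values rest on the spread between these 2 arrays, moderated across probes. That small number of arrays limits the precision. Per channel, 54.1% to 57.4% of the 43379 gene spots passed the scanner's test for signal well above background, and 0 were saturated. As a check of the labels, H2-Ea, a class II gene that H-2b mice do not transcribe, had log2 ratios of -5.22 and -5.26. Rag1 was called higher in the pools labelled Rag1-/- by all 3 of its probes, at mean log2 ratios of 4.14, 3.32 and 1.04 (limma adjusted p = 0.00048, 0.00061 and 0.0101), so its signal was not reduced in them. Whether these probes lie in the deleted part of the gene is not given in the sources used here, so the Rag1 genotype was not checked by them. The 8 B lineage markers, Cd79a and Cd79b among them, had a signal well above background in both channels of both arrays, and their median log2 ratio was 0.02. They did not lie together: Blnk, a signalling adaptor, was called higher at 1.08 and Pax5, the factor that maintains B cell identity, lower at -1.05 (limma adjusted p = 0.00934 and 0.0248), while a second Pax5 probe at -0.40 was not called. At an unadjusted limma p under 0.05, 3 of the 8 were higher and 2 lower.

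Interferons are secreted proteins that warn cells of infection. Type I interferon binds the IFNAR receptor, whose JAK kinases phosphorylate STAT proteins, and a complex that holds STAT2 and IRF9 then binds the interferon-stimulated response element (ISRE) in promoters. Type II interferon, interferon gamma, acts mainly through the gamma-activated site (GAS). The products of the induced genes sense viral nucleic acid, block viral replication or feed back on the pathway, and B cells respond to both types.

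The promoters of these genes were examined for both elements, which the choice of the genes did not use. The letters searched on both strands were GAAA, any 2 bases and GAAA for the ISRE, and TTCNNNGAA for the GAS, in windows of 250 bases before to 50 bases after each start site (RefSeq, GRCm38.p6). The promoter table held 24 of the 35 genes, with 31 start sites. ISRE letters were present in 15 of the 24 genes (62.5%), against 3.99% of all 27025 genes in the table. GAS letters were present in 5 of the 24 (20.8%), against 9.55% of all genes. Igtp and Oas1a held both, and no ISRE match overlapped a GAS match. A match is a description of the letters and not evidence of binding.

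6 promoters are shown as examples of more than 1 match, or of GAS letters alone. Promoters with 1 ISRE match and no GAS match, such as those of Rsad2 and Oas3, are not shown. Isg15 holds 3 overlapping ISRE matches, Ifit1 and Ifit3 hold 2 separate ones each, Oas1a and Igtp hold both elements, and Irf1 holds GAS letters alone. Each is the 160 bases that precede the start site, written 5′ to 3′ along the gene's strand, with ISRE and GAS matches in capitals. In build GRCm38.p6 they lie at chr4:156200819-156200978 on the minus strand, chr19:34640729-34640888 on the plus strand, chr19:34583369-34583528 on the plus strand, chr5:120907526-120907685 on the minus strand, chr11:58199396-58199555 on the plus strand and chr11:53769854-53770013 on the plus strand.
Isg15: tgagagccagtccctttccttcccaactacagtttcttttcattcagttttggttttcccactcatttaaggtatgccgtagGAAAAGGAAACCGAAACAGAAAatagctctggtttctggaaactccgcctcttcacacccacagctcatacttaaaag
Ifit1: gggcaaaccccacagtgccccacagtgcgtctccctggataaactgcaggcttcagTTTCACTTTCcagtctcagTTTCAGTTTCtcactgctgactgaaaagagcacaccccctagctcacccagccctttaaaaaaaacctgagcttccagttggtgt
Ifit3: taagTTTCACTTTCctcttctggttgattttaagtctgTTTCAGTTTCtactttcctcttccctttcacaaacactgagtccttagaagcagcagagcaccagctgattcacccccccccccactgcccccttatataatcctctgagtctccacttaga
Oas1a: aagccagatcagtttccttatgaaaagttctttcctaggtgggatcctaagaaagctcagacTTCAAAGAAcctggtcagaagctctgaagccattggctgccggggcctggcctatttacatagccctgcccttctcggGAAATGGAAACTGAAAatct
Igtp: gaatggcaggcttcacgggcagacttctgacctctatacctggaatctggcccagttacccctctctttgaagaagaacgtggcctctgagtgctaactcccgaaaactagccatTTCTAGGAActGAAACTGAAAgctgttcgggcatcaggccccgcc
Irf1: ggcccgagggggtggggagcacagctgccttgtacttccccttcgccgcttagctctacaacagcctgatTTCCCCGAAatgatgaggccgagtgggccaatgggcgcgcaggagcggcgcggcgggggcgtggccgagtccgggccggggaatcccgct

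In Isg15 the 3 matches run without a gap from 78 to 57 bases before the start. In Ifit1 the matches end 95 and 76 bases before it, and in Ifit3 147 and 113 bases before it. The 2 Oas1a matches lie nearest, ending 11 and 5 bases before the start. In Igtp the GAS letters end 37 bases before the start and the ISRE letters begin 34 bases before it. The single GAS match of Irf1 spans 90 to 82 bases before its start.

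**Figure D1:**
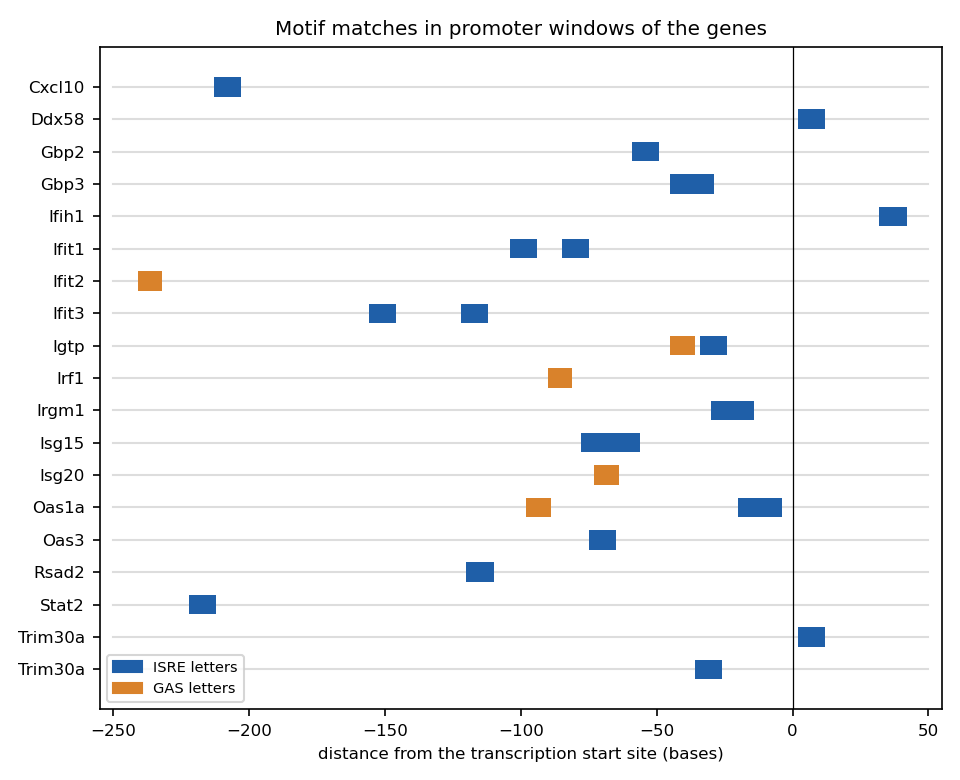
Positions of ISRE letters (blue) and GAS letters (orange) in the promoter windows that hold a match, by distance in bases from the transcription start site; Trim30a has 2 start sites. Igtp and Oas1a are the 2 genes with both elements.

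The levels of most of these genes differed little between the groups, and 3 of the 35 passed the test. Oas2 and Mx1, both antiviral effectors, were lower in autoreactive cells, and Ifi27l2a, a small membrane protein of the ISG12 family, was higher. Against a background of 2.61% of all genes called lower and 3.47% called higher, the shares among these genes were 5.71% lower and 2.86% higher; in either direction 6.09% of all genes were called. A gene was called at a limma adjusted p under 0.05 (Benjamini-Hochberg over all probes tested), and each gene was represented by its brightest tested probe. Ratios are log2 of autoreactive over non-autoreactive, so negative values are lower in autoreactive cells.

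The median log2 ratio of the 35 genes was -0.18, against -0.0018 for all genes tested. It was -0.19 on array 1 and -0.28 on array 2. Ratios were below 0 on both arrays for 20 of the 35 genes (57.1%), against 35.4% of all genes, and above 0 on both for 5 (14.3%), against 36.1%. The remaining 10 lay on different sides of 0. At an unadjusted limma p under 0.05, 11 of the 35 genes were lower, where 12.3% of all genes were, and 2 were higher, where 12.0% were. The size of the ratio was under 0.5 for 28 of the 35 genes (80.0%), against 87.4% of all genes tested. Where probes were centred on the median of all gene probes instead of by loess, the median of all genes moved to 0.58 and that of these genes to 0.24, still below it by 0.34.

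**Figure D2:**
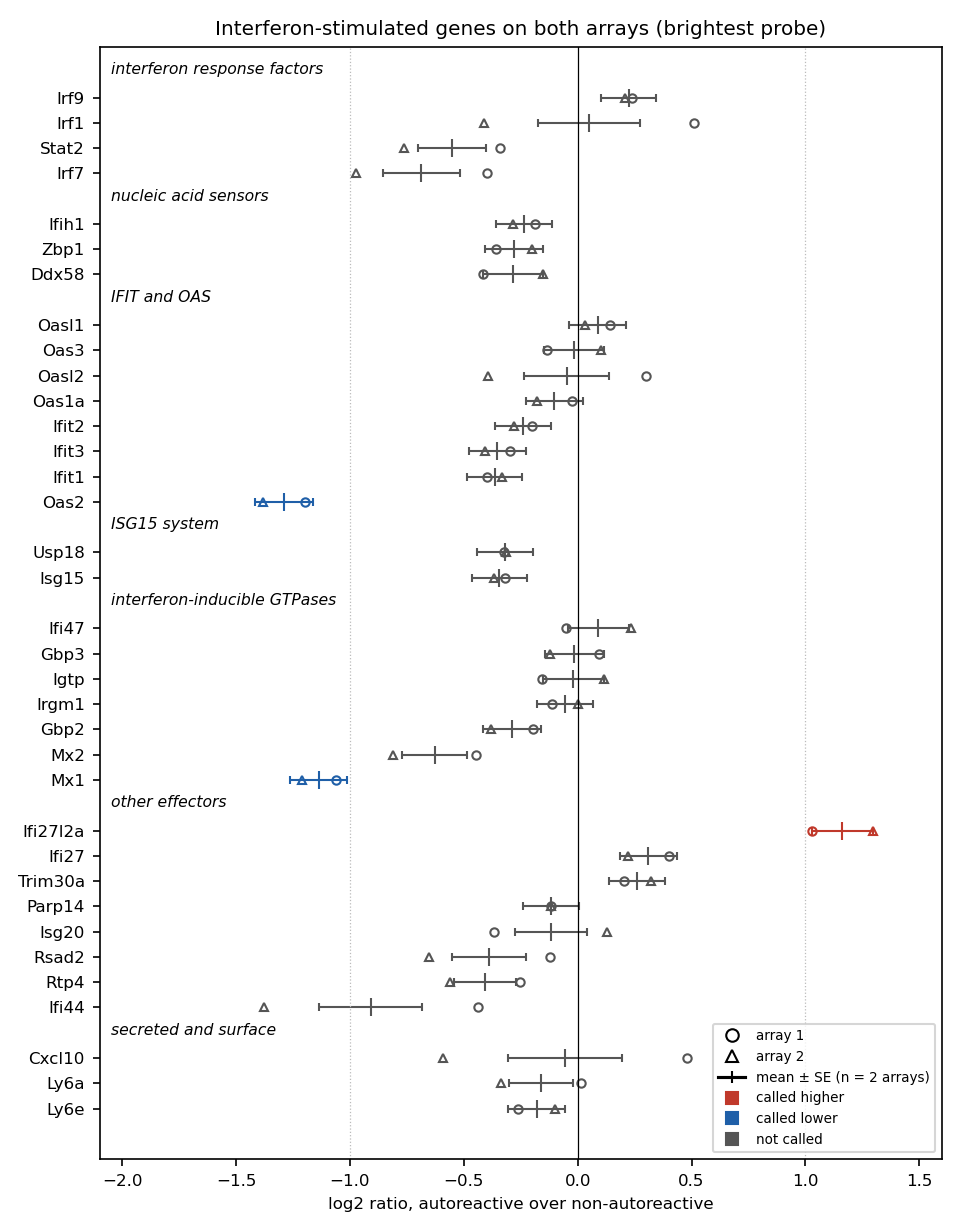
Log2 ratio of each gene on array 1 (circles) and array 2 (triangles), with the mean ± limma-moderated SE (n = 2 arrays), grouped by role. Red marks genes called higher, blue those called lower, and dotted lines mark a 2-fold change. Oas2 and Mx1 lie left of the 2-fold line on both arrays and Ifi27l2a right of it.

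Among the factors that carry the interferon signal, none of 4 was called. Irf7, the factor that amplifies type I interferon production, had autoreactive log2 intensities of 8.61 and 8.11 (arrays 1 and 2) and non-autoreactive ones of 9.01 and 9.09. Both autoreactive levels lay below both others. The log2 ratio was -0.69 ± 0.168 (limma-moderated SE, n = 2 arrays, limma adjusted p = 0.0788). Stat2, a subunit of the complex that binds the ISRE, had autoreactive levels of 10.92 and 10.82 and non-autoreactive ones of 11.26 and 11.59, which did not overlap. Its log2 ratio was -0.55 ± 0.149 (limma adjusted p = 0.0986); centring on the median of all gene probes turned its sign, to 0.10.

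Irf9, the DNA-binding subunit of the same complex, lay on the other side of 0. Its ratios were 0.24 and 0.21, and its autoreactive levels of 12.56 and 12.54 were above the non-autoreactive 12.32 and 12.33. The mean of 0.22 missed the threshold (limma adjusted p = 0.322). Irf1, an activator induced mainly by interferon gamma, changed sides between arrays. Its levels were 14.96 and 14.69 in autoreactive cells and 14.45 and 15.10 in non-autoreactive cells, giving ratios of 0.51 and -0.41. With a mean of 0.05 and an SE of 0.223, no difference was detectable for Irf1 with these arrays.

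The 3 sensors of viral nucleic acid were below 0 on both arrays, and none was called. Ddx58, which encodes the RNA sensor RIG-I, had a mean log2 ratio of -0.28, and its other 3 probes gave -0.09, -0.23 and -0.05. Ifih1, the long-RNA sensor MDA5, had -0.23. Zbp1, a sensor of Z-form nucleic acid, had -0.28. The limma adjusted p ran from 0.248 for Zbp1 to 0.309 for Ifih1. Their SEs were 0.133 for Ddx58, 0.123 for Ifih1 and 0.126 for Zbp1.

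Of the 8 IFIT and OAS genes, 1 was called. Oas2, whose product makes the short adenylate chains that activate the RNA-degrading enzyme RNase L, had autoreactive log2 intensities of 9.08 and 9.45 and non-autoreactive ones of 10.27 and 10.84. The groups did not overlap, and the ratio was -1.20 on array 1 and -1.38 on array 2. The mean was -1.29 ± 0.127, 2.45-fold lower in autoreactive cells (limma adjusted p = 0.00686). The probe lies at chr5:119964411-119964470 in the scanner files, which name no build. Its call was lost when the channels were compared without pairing by array (limma adjusted p = 0.0911). A second Oas2 probe was not well above background in any channel and was not tested.

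No other OAS gene was called. Oas1a had a log2 ratio of -0.10, Oas3 of -0.02 and Oasl2 of -0.05, and Oasl1, which inhibits Irf7 translation, of 0.09. The ratios of Oas3 and Oasl2 lay on different sides of 0 on the 2 arrays, and the autoreactive signal of Oasl2 was not well above background on array 2. Whether Oas2 differs from them was not tested. The IFIT genes encode proteins that bind foreign RNA. Ifit1 had ratios of -0.40 and -0.33, Ifit3 of -0.30 and -0.41, and Ifit2 of -0.20 and -0.28. Autoreactive and non-autoreactive levels of Ifit1 did not overlap (7.69 and 7.45 against 8.09 and 7.79), nor did those of Ifit3 (8.88 and 8.69 against 9.18 and 9.09). The limma adjusted p was 0.153 for Ifit1, 0.166 for Ifit3 and 0.297 for Ifit2. On both arrays the autoreactive signal of a second Ifit2 probe was not well above background. Its log2 ratio of -0.29 was not called (limma adjusted p = 0.241).

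The ISG15 system attaches a ubiquitin-like protein to targets and removes it again. Isg15, the modifier, had autoreactive levels of 9.22 and 9.06 and non-autoreactive levels of 9.54 and 9.43, which did not overlap. Its ratios of -0.32 and -0.37 gave a mean of -0.34 (limma adjusted p = 0.169). Usp18, the enzyme that removes Isg15 and also damps signalling at the receptor, had ratios of -0.32 and -0.31, with a mean of -0.32 (limma adjusted p = 0.193). Both genes were below 0 on both arrays, and neither passed the test. The Isg15 probe is placed on chromosome 17 in the scanner files, while its RefSeq promoter is on chromosome 4.

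Of the 7 GTPases, 1 was called. Mx1, an antiviral GTPase of which many laboratory strains carry a defective allele, had autoreactive levels of 8.0 and 7.93 against non-autoreactive levels of 9.06 and 9.14. No autoreactive value reached a non-autoreactive one. The ratios of -1.06 and -1.21 gave a mean of -1.14 ± 0.125, 2.2-fold lower (limma adjusted p = 0.00902). The second Mx1 probe was lower too, at -0.67 and -0.72, with a mean of -0.70 ± 0.122 (limma adjusted p = 0.032). The probes lie at chr16:97829378-97829437 and chr16:97831763-97831822 in the scanner files.

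Mx2, the neighbouring paralog of Mx1, had levels of 11.34 and 11.32 in autoreactive cells and 11.79 and 12.13 in non-autoreactive cells. The groups were separate, with ratios of -0.44 and -0.81. The mean of -0.63 ± 0.142 missed the threshold (limma adjusted p = 0.0653), and median centring of all gene probes turned its sign, to 0.07. The guanylate-binding proteins and immunity-related GTPases attack the vacuoles of intracellular microbes. Gbp2 had a log2 ratio of -0.29 and was below 0 on both arrays (-0.20 and -0.38). The log2 ratio was -0.05 for Irgm1, -0.02 for Igtp, -0.01 for Gbp3 and 0.09 for Ifi47, and none of these 5 genes was called. Irgm1 was the gene with tested probes on both sides of 0, at -0.05 and 0.08.

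**Figure D3:**
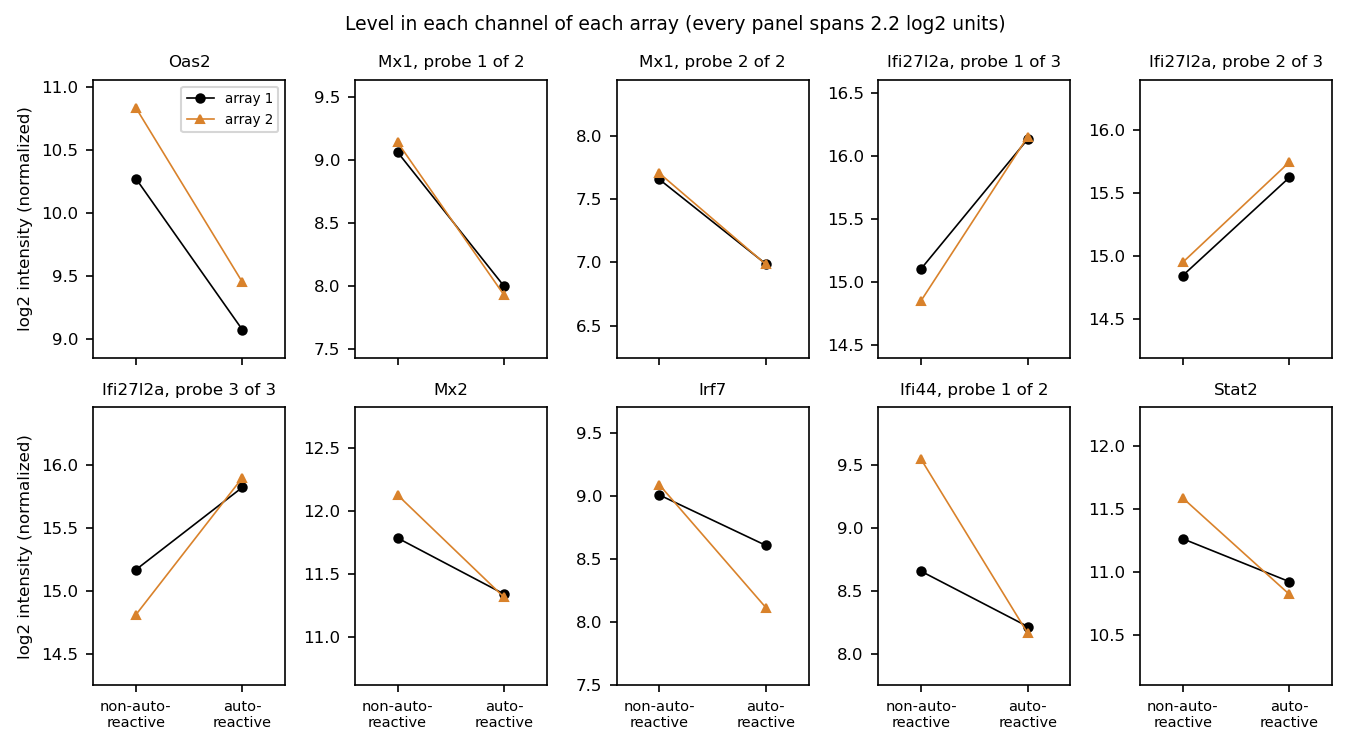
Normalized log2 intensity in the non-autoreactive and autoreactive channel of array 1 (black circles) and array 2 (orange triangles) for the called genes with all their tested probes, and for Mx2, Irf7, Ifi44 and Stat2; each panel spans 2.2 log2 units. Both lines fall for Oas2 and Mx1 and rise for the 3 Ifi27l2a probes.

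Among 8 other effectors, 1 was called. Ifi27l2a, the ISG12 family member, had autoreactive levels of 16.13 and 16.15 and non-autoreactive levels of 15.11 and 14.85. Its ratios were 1.03 and 1.30, a mean of 1.16 ± 0.133 and 2.24-fold higher (limma adjusted p = 0.00961). That probe, at chr12:100951375-100951434, is named through the array's own gene name and not by a RefSeq accession. The 2 probes tied to Ifi27l2a by accession were also higher, at 0.79 ± 0.121 (limma adjusted p = 0.023) and 0.87 ± 0.150 (limma adjusted p = 0.030). They lie at chr12:100937850-100937909 and chr12:100938562-100938621. Their ratios were 0.78 and 0.79 for the first and 0.65 and 1.09 for the second, so neither passed 2-fold on both arrays. Whether the brightest probe measures the same gene was not tested. Ifi27, a close relative of Ifi27l2a with its probe at chr12:100935809-100935868, had ratios of 0.40 and 0.22. Its mean was 0.31 (limma adjusted p = 0.215). The 2 genes are similar, and how far the probes cross-react was not tested.

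Ifi44, which restrains proliferation and viral replication, had autoreactive levels of 8.22 and 8.17 and non-autoreactive levels of 8.66 and 9.55. They did not overlap, but the ratio was -0.44 on array 1 and -1.38 on array 2. The mean was -0.91 ± 0.226 (limma adjusted p = 0.0819). It was called under both median centrings, with limma adjusted p of 0.0496 and 0.0128. Rsad2, which makes the antiviral nucleotide analogue ddhCTP, had ratios of -0.12 and -0.65, and Rtp4, a receptor chaperone, had -0.25 and -0.56; their groups did not overlap and neither was called (limma adjusted p = 0.222 and 0.154). Isg20, an exonuclease, and Parp14, an ADP-ribosyltransferase, both had a mean of -0.12. Isg20 changed sides between arrays (-0.37 and 0.13), while Parp14 had -0.12 on each. The other Parp14 probes had means of -0.02 and -0.38, and neither was called. Trim30a, a feedback regulator of NF-kB signalling, had ratios of 0.20 and 0.32, with a mean of 0.26 (limma adjusted p = 0.265). Its second probe changed sides between arrays, at -0.12 and 0.31, with a mean of 0.10 (limma adjusted p = 0.725).

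Of the secreted and surface products, none of 3 was called. Cxcl10, a chemokine that draws CXCR3-bearing cells, had ratios of 0.48 and -0.59. Its levels of 7.68 and 6.99 in autoreactive cells overlapped the 7.20 and 7.58 of non-autoreactive cells. Ly6a, the surface protein Sca-1, had ratios of 0.02 and -0.33, and Ly6e, a GPI-anchored surface protein, had -0.26 and -0.10. The signs differed between arrays for Cxcl10 and Ly6a.

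In 12 of the 35 genes both autoreactive levels lay below both non-autoreactive ones, which held for 22.4% of all genes tested, and in 4 the order was the reverse, which held for 23.9%. The 12 were Oas2, Mx1, Ifi44, Irf7, Mx2, Stat2, Rtp4, Rsad2, Ifit1, Ifit3, Isg15 and Parp14. The 4 were Irf9, Trim30a, Ifi27 and Ifi27l2a. By their brightest probes, the 3 called genes were also the 3 past 2-fold on both arrays, where 1.01% of all genes were higher and 0.702% lower. None of the 3 is in the promoter table. The 15 genes with ISRE letters had a median log2 ratio of -0.23, from -0.55 to 0.26, and the 9 without had -0.05, from -0.91 to 0.22. The 2 ranges overlapped, and no difference between them was tested.

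The ratio on array 2 was lower than on array 1 for 23 of the 35 genes (65.7%), against 52.1% of all genes. Of 15 markers of plasmacytoid dendritic cells, the main producers of type I interferon, 14 were below 0 on both arrays, and Ly6d, Cox6a2 and Ptprs were called lower (log2 ratios of -1.32, -1.22 and -1.09), while a second Ptprs probe at -0.33 was not called. Of all genes tested, 35.4% were below 0 on both arrays and 2.61% were called lower. Of the 15, Ly6d, Dntt, Tcf4 and Runx2 are also known from B lineage cells. The list's summed level, the log2 of summed linear intensities, was 15.8 and 15.7 in autoreactive cells and 16.8 and 17.0 in non-autoreactive cells. The difference was -0.98 on array 1 and -1.32 on array 2. Bright markers weigh most in such a sum. Ly6d, the brightest here, had levels of 14.3 and 14.5 in autoreactive cells and 15.8 and 15.7 in non-autoreactive cells. Siglech, a defining surface marker, had ratios of -0.87 and -2.77 and was not called (limma adjusted p = 0.0617). Cd300c was the marker of the 15 whose autoreactive signal was not well above background on either array.

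The summed level of 10 NK cell markers differed by -0.10 on array 1 and -1.54 on array 2, with 7 below 0 on both arrays. That of 12 monocyte and granulocyte markers differed by 0.27 and -0.38, that of 8 T cell markers by -0.12 and -0.34, and that of 9 erythroid markers by -0.55 and -0.60. For 10 markers of conventional dendritic cells and macrophages it was -0.15 and -0.58, and for 5 of stroma and endothelium -0.17 and -0.55. All 9 erythroid markers were below 0 on both arrays, as were 6 of the 8 T cell markers. So were 4 of the 12 monocyte and granulocyte markers, 5 of the 10 for conventional dendritic cells and macrophages and 3 of the 5 for stroma and endothelium. Cd3g, Cd8a and Cd28 were not well above background in autoreactive cells on both arrays. Called lower in these lists were Ltf, a granule protein of neutrophils (-0.84), Cd8b1, a T cell coreceptor chain (-0.93), and the erythroid genes Slc4a1 (-0.75) and Hemgn (-0.69). Second probes of Ltf and Hemgn, at -0.75 and -0.41, were not called, and a second Cd8b1 probe was, at -2.26. The summed B lineage level differed by 0.38 and 0.46. Lck was the brightest marker in the T cell sum and Cd79b in the B lineage sum. The part of these cell types in the ratios of the interferon-stimulated genes was not tested. In sorted bulk cells, fewer cells of a type and less RNA per cell cannot be told apart.

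**Figure D4:**
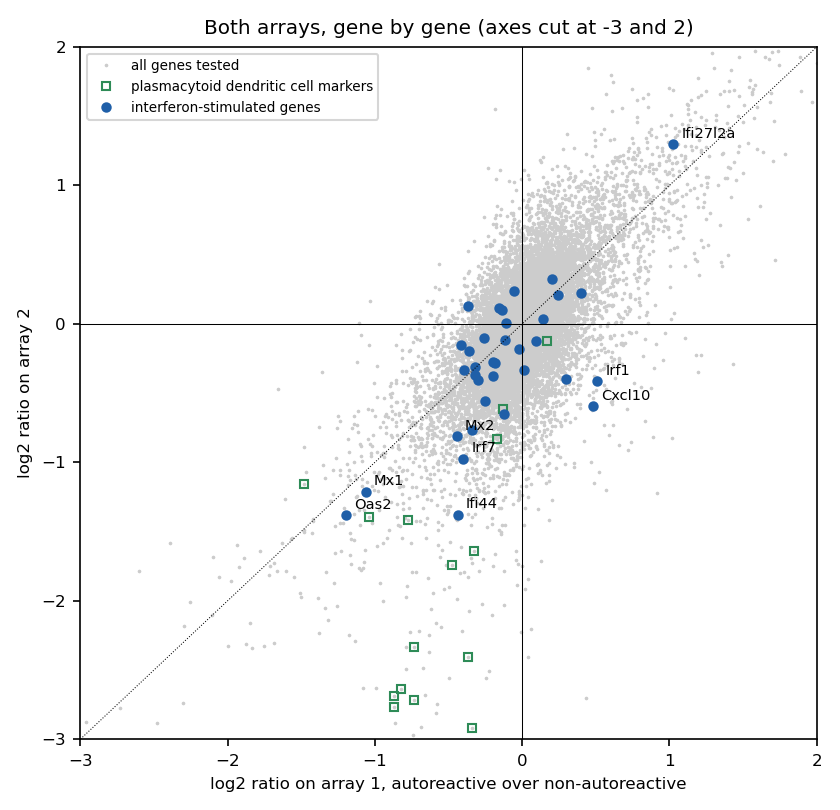
Log2 ratio on array 1 (x) against array 2 (y) for all genes tested (grey), the interferon-stimulated genes (blue) and markers of plasmacytoid dendritic cells (green squares); the dotted line marks equal ratios and axes are cut at -3 and 2. Oas2 and Mx1 lie near the line, Ifi44 below it at -0.44 and -1.38, and Ifi27l2a in the upper right.

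The other genes of the pathway came from lists of 142 names, 110 of them tested. Of the 110, 3 were called higher and 4 lower, beside 3.47% and 2.61% of all genes, and their median log2 ratio was -0.06. Of 19 interferon genes listed, 6 were tested and none was called; interferon gamma, Ifng, had ratios of -0.23 and -0.98 (limma adjusted p = 0.143). None of 6 receptor genes was called. Ifnar1 and Ifnar2, the chains of the type I receptor, had log2 ratios of 0.09 and -0.42 (limma adjusted p = 0.700 and 0.114).

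Among 9 JAK, STAT and IRF genes outside the set, 1 was called. Irf5, which drives inflammatory responses downstream of Toll-like receptors, had levels of 11.99 and 12.40 in autoreactive cells and 12.99 and 13.07 in non-autoreactive cells, with a log2 ratio of -0.83 ± 0.139 (limma adjusted p = 0.0283). Its call was lost under 4 of 10 alternatives: median centring of all gene probes moved the ratio to -0.03, and the other 3 left it between -0.83 and -0.82. Of 14 signalling inhibitors, Socs1 alone was called. This suppressor of JAK kinases had levels of 12.83 and 13.49 in autoreactive cells and 11.70 and 12.05 in non-autoreactive cells. They did not overlap, and the log2 ratio was 1.28 ± 0.137 (limma adjusted p = 0.00837). Socs3, another of the 14, had ratios of -0.45 and -1.41 and was not called (limma adjusted p = 0.0812). Of the 14 inhibitors, 6 were below 0 on both arrays and 4 above. The calls of Socs1 and of Casp4, an interferon-stimulated caspase, were lost with separate channels (limma adjusted p = 0.109 and 0.103).

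Of 14 tested genes that induce interferon, Ikbke, a kinase that activates IRF3, was called lower, with a log2 ratio of -0.70 ± 0.127 (limma adjusted p = 0.0357). Tlr7, an endosomal RNA sensor, had ratios of -0.64 and -1.83 and was not called (limma adjusted p = 0.060). Among 64 further interferon-stimulated genes, 2 were called higher and 2 lower, and their median log2 ratio was -0.04. Ratios were below 0 on both arrays for 23 of the 64, where 35.4% of all genes were. They were above 0 on both for 17, where 36.1% of all genes were. Shisa5, an endoplasmic reticulum protein, had a log2 ratio of 1.27 ± 0.127 (limma adjusted p = 0.00732), and Casp4, the inflammatory caspase-11, had 1.00 ± 0.134 (limma adjusted p = 0.0148). Of the other Shisa5 probes, 1 was called, at 0.94, and 1 was not, at 0.52. Cd274, the checkpoint ligand PD-L1, had ratios of -1.14 and -2.29 and a mean of -1.72 ± 0.265 (limma adjusted p = 0.0227). The calls of both Cd274 and Ikbke were lost with no filter on dim probes (limma adjusted p = 0.0740 and 0.0522) and with separate channels (0.396 and 0.529). Pml, the organiser of PML nuclear bodies, had -0.67 ± 0.123 (limma adjusted p = 0.0354), and its second probe was called too, at -0.72. The call was lost under 4 of 10 alternatives, and among them median centring of all gene probes turned the sign, to 0.22, and centring on detected probes gave -0.32. Bst2, a tethering protein that is also on the plasmacytoid dendritic cell list, had ratios of -0.73 and -2.33 and was not called (limma adjusted p = 0.065). Ifi204, another of the 64 genes, lay on the other side of 0. Its ratios were 0.57 and 0.61, and it was not called (limma adjusted p = 0.0501).

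The calls of Mx1 and Ifi27l2a held under all 10 alternatives that kept both arrays, and that of Oas2 under 9 of the 10. The log2 ratio of Mx1 ran from -1.46 to -0.79, that of Oas2 from -1.40 to -0.76 and that of Ifi27l2a from 0.94 to 2.40. The median of the 35 genes was below that of all genes under each of them, by 0.17 to 0.34.

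**Figure D5:**
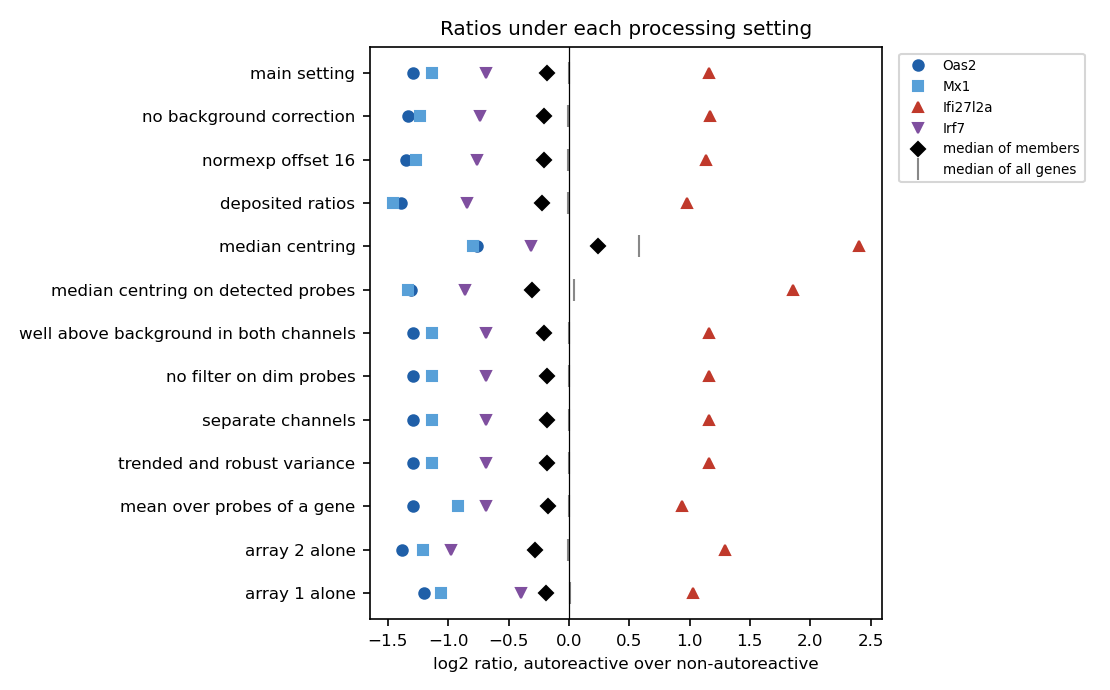
Log2 ratio of Oas2, Mx1, Ifi27l2a and Irf7, the median of the 35 genes (diamonds) and the median of all genes (grey bars) under each processing setting. Median centring of all gene probes moved the median of all genes to 0.58; under it Oas2 and Mx1 stayed below 0 and the median of the 35 genes was 0.24.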

How the data were processed

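RNA (0.5 ug a sample) was amplified and hybridised to 2-colour Agilent arrays. Per the file headers, the deposited files are Agilent Feature Extraction 9.5.1.1 output with a spot intensity and local background per channel, and with log10 ratios of Cy5 over Cy3 that the software had background-subtracted and dye-normalized. The deposited series table held the same log10 ratios.

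Here the intensity values were background-corrected (normexp, offset 50) and loess-normalized within each array, and spots of a probe were averaged. On each array a tested probe needed a signal well above background in 1 channel or both; tests used limma 3.58.1 in R 4.3.3 on log2(Cy5/Cy3) against 0, two-sided, Benjamini-Hochberg adjusted, threshold 0.05. With residual df 1 a probe, the variance was pooled across probes (prior df 5.08). Channel levels are log2 intensities after loess and Aquantile scaling. Both arrays had the same dye orientation and shared a slide, so dye bias does not cancel. Where a signal was not well above background, the ratio rests on that signal as measured.

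Every gene of the set is accounted for; called genes, genes past 2-fold on both arrays and genes with probes on both sides of 0 are given with both arrays. Of each further list, up to 4 called genes are named. Irf7, Stat2, Mx2, Ifi44 and the uncalled pathway genes named were picked after their values were seen. Single values of some listed genes are not reported here. The genes and lists were chosen with earlier results of these data known.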

Additional observations from a re-analysis of the deposited data

How the results depend on the processing

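With 2 arrays in 1 dye orientation, these values carry few degrees of freedom. Centring on the median of all gene probes gave 14 of the 35 genes higher and a median of 0.24 (65.7% of all genes were then called higher), with 70 pathway genes higher, and it reversed Mx2 (0.072), Stat2 (0.10) and Pml (0.22). Centring on detected probes gave 11 lower and 4 higher, a median of -0.31, and 13 pathway genes lower and 15 higher (16.7% of all genes lower, 17.7% higher). Comparing separate channels with limma left 1 gene lower, and 0 pathway genes lower (11 at an unadjusted p under 0.05) and 1 higher. Pathway genes lower numbered 2 with the deposited ratios and 1 with no filter on dim probes. The cause of these changes was not tested.

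On 1 array alone, past 2-fold with no test, 2 to 3 of the genes were lower and 1 higher (array 2 added Ifi44), the median ran from -0.28 to -0.19, and 2 to 8 pathway genes were lower. The other alternatives kept these counts within 1.5 times.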
